A study of Homo sapiens with 6 samples.

Results

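The regions described here are stretches of open chromatin in SLFN11-knockout leukaemia cells that were called as peaks in the lists coded CB45_KO_2 and CB45_KO_4 and had no peak in the list coded CB45_KO. Overlapping entries of all 6 deposited peak lists on chromosomes 1 to 22 and X were merged into 32037 union regions, where an overlap of 1 bp was enough, and 1568 of these met the rule (4.89% of the union). They are called CB45_KO-lacking regions below. They were chosen by the peak calls of the 3 knockout lists, so those calls are given as a description. The parent lists, coded CCRF_WT2, CCRF_WT4 and CCRF_WT, took no part in the choice beyond forming the union.

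The assay was ATAC-seq, which uses a transposase to insert adapters into DNA that nucleosomes leave exposed, and the cells were CCRF-CEM, an established human T lymphoblast line. The knockout cells lack a working SLFN11 gene per the labels, and the parent cells are labelled wild-type. Each genotype received DMSO, the drug's solvent, or 100 nM camptothecin for 2 h or 4 h, with 1 library in each of the 6 groups. The labels do not say how many knockout clones were used, and neither the knockout nor T lymphoblast marker genes were located in the lists.

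The treatment of each list has 2 readings. By the codes in the sample titles, CB45_KO_2 is knockout with 2 h of camptothecin, CB45_KO_4 knockout with 4 h and CB45_KO knockout with DMSO, which makes the set regions gained under the drug. The lists are, however, recorded under other samples: CB45_KO_2 under knockout DMSO, CB45_KO_4 under knockout 2 h and CB45_KO under knockout 4 h. In the parent cells, CCRF_WT2 is 2 h by title code and recorded as DMSO, CCRF_WT4 is 4 h by title code and recorded as 2 h, and CCRF_WT is DMSO by title code and recorded as 4 h. The codes matched the titles of the recorded samples in 0 of 6 lists. By the recorded samples, the same 1568 regions were called with DMSO and at 2 h and not at 4 h. The lists are therefore named by their codes, and "gained" is not used for the set.

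Camptothecin traps topoisomerase I on DNA, and replication forks that run into the trapped enzyme break or stall. SLFN11 is recruited to stressed forks through the single-strand binding protein RPA, blocks their progress and has been linked to opening of chromatin near them and to induction of immediate early genes. The question a knockout answers is which accessibility changes under the drug occur without SLFN11. A peak that appears in a treated library can mark a promoter or enhancer that has lost nucleosomes, and it can also mark a site that lay just under the calling threshold in the other library.

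Regions that were called in a pair of knockout lists and missed by the remaining one were not peculiar to CB45_KO. The number lacking CB45_KO alone, 1568, lay between the 1738 regions lacking CB45_KO_4 alone (5.42% of the union) and the 857 lacking CB45_KO_2 alone (2.68%). By the recorded samples, the 857 are the regions called at 2 h and 4 h and not with DMSO. All 3 knockout lists held 14141 regions. In total, CB45_KO_2 held 20441 union regions, CB45_KO 18869 and CB45_KO_4 18668. The fewer regions a knockout list held, the more were missing from it alone, but these counts are linked by construction. A region missing from a list alone adds to the length of the other knockout lists and not to its own. The part of list length in these counts was not tested. A single knockout list held 2994 regions for CB45_KO_2, 2102 for CB45_KO_4 and 2133 for CB45_KO. Within knockout cells each treatment had 1 library and so no replicate error, and a model over both genotypes would use the knockout calls that chose the set, so no test of a treatment was run. The intervals given below are Wilson 95% intervals that cover counting error only.

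Read totals were not used here. The lowest local background, recovered from the deposited fold and p under the Poisson model of the peak caller, depends on read number and read extension. It stood at 1.37 reads in CB45_KO_2, 1.36 in CB45_KO_4 and 1.27 in CB45_KO, and 1.29, 1.26 and 1.22 in CCRF_WT2, CCRF_WT4 and CCRF_WT. The background of CB45_KO was thus 0.926 times that of CB45_KO_2 and 0.931 times that of CB45_KO_4. By this measure CB45_KO_4 lay near CB45_KO_2. In regions held, CB45_KO_4 was the smallest knockout list, at 18668 of the union. The set lacking it alone was the largest, a count linked to list length by construction. The parts of depth, list length and sampling error in the set were not tested.

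Most CB45_KO-lacking regions rested on few reads. Their summit pileup, the number of reads stacked at the highest point, had a median of 14 in CB45_KO_2, with quartiles of 11 and 17, and a median of 13 in CB45_KO_4, with quartiles of 11 and 15. Over all regions called in these lists the medians were 20 and 18. The medians of the set were shared by the other sets that lack 1 knockout list. Regions lacking CB45_KO_4 alone had 14 in CB45_KO_2, and regions lacking CB45_KO_2 alone had 13 in CB45_KO_4. The counts by pileup below were taken for the set only. The lowest pileup called in any list was 8. A pileup of at most 10 was found for 278 CB45_KO-lacking regions in CB45_KO_2 (17.7%) and for 343 in CB45_KO_4 (21.9%), whereas 232 (14.8%) and 133 (8.48%) reached 20 or more. Fold enrichment, which is the authors' value for the summit over local background within its own list, had a median of 4.72 in CB45_KO_2 and 4.66 in CB45_KO_4, against 5.84 and 5.74 over all regions of the same lists. It was the higher in CB45_KO_2 for 810 of the 1568 regions (51.7%). Across the 1568 regions, the 2 folds had a Spearman rho of 0.36. Both values come from the same stretch of sequence, and both passed the calling threshold that the rule requires.

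**Figure D1:**
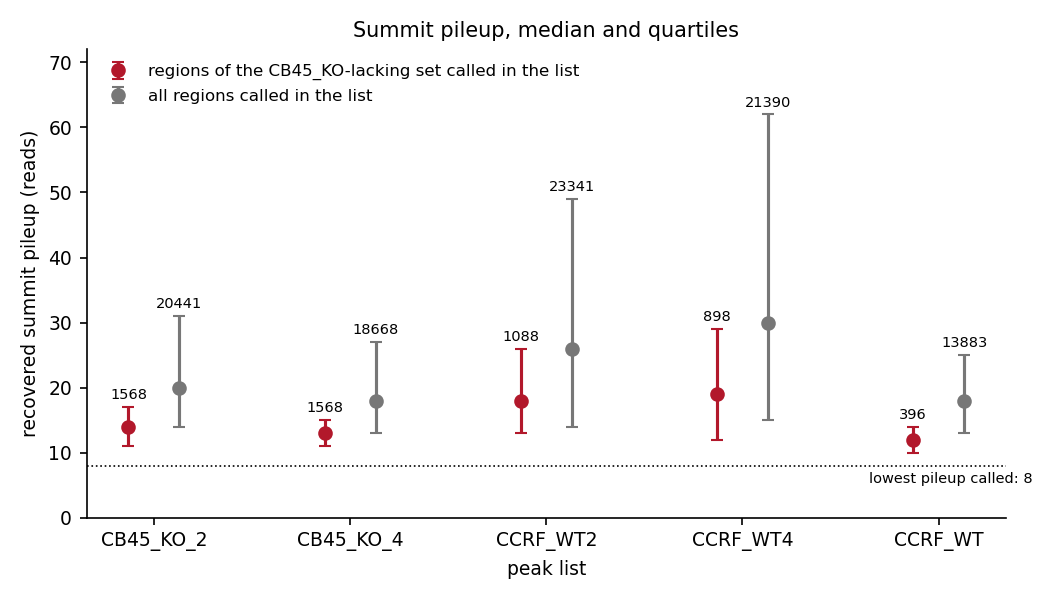
Summit pileup in reads (y axis) in 5 peak lists (x axis), for CB45_KO-lacking regions (red, left of each pair) and for all regions called in the list (grey). Points are medians, bars run from the lower to the upper quartile, and numbers above are regions; the red medians lie between 12 and 19, each below the grey one of its list.

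Peak calling sets the edge of the set. The weakest members were on chromosome 18, 51646042 to 51646343, on chromosome 4, 68781394 to 68781580, and on chromosome 4, 171418341 to 171418688. Each had a pileup of 8 and a -log10 q of 2.00 in CB45_KO_4, the lowest that any list accepts being a q of 0.01. In CB45_KO_2 their pileups were 9, 15 and 10 reads, in the order named. Just outside the set were regions kept out by a CB45_KO peak near the same limit of significance. Members have no CB45_KO value, so the sides of the edge are shown by different lists. The region on chromosome 14, 56826040 to 56826312, had pileups of 17 in CB45_KO_2, 14 in CB45_KO_4 and 8 in CB45_KO, where its -log10 q was 2.01. On chromosome 7, 155159545 to 155159839, the pileups were 11, 11 and 10 reads in the same order of lists. On chromosome 11, 67176609 to 67177083, they were 15, 15 and 13. Of the 1568 members, 469 (29.9%) had a -log10 q under 3 in at least 1 of their calls, 386 (24.6%) had at least 5 in both, and 36 (2.30%) had at least 10 in both. A value under 3 was found in 464 of the 1738 regions lacking CB45_KO_4 alone and 305 of the 857 lacking CB45_KO_2 alone. Values of at least 10 in both calls were found in 29 and 11 of these. Of the 25533 regions with a knockout call, 4615 had a value under 3 and 5981 had at least 10 in every knockout call.

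Few members lay within 500 bp of a CB45_KO peak. The distance to the nearest CB45_KO entry had a median of 27794 bp, with quartiles of 8950 and 71537 bp, and 49 members (3.13%) had such an entry within 500 bp. Among themselves, 4 members lay within 1000 bp of another member, 36 (2.30%) within 10000 bp and 316 (20.2%) within 100000 bp. Neither kind of distance was measured for other sets of regions, so these shares have no background beside them. Union regions of the set had a median width of 402 bp, and 34 (2.17%) were no wider than 170 bp, against 438 bp and 11.2% over the union. The span of the knockout peaks alone was at most 170 bp in 70 members (4.46%). A member needs calls in 2 lists, which widens it, so these widths are not comparable with those of regions called once. The median width was 438 bp for regions lacking CB45_KO_4 alone and 385 bp for those lacking CB45_KO_2 alone. Of these, 1.32% and 1.28% were no wider than 170 bp.

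About as many members had their summits within 50 bp of each other as farther apart. The distance between CB45_KO_2 and CB45_KO_4 was 51 bp at the median, with an upper quartile of 104 bp, and the summits were within 50 bp of each other in 777 of the 1568 members (49.6%, 47.1 to 52.0%). Between CB45_KO_2 and the parent list CCRF_WT2, which the rule did not use, the median distance was 46 bp over 1088 members, and 572 (52.6%, 49.6 to 55.5%) were within 50 bp. In regions held by all 3 knockout lists the share within 50 bp was 53.1% (52.3 to 53.95%) for CB45_KO_2 and CB45_KO_4, and 56.8% (55.96 to 57.6%) for CB45_KO_2 and CCRF_WT2. The shares of the set were a few points lower for both pairs of lists, and so were those of the other sets that lack 1 knockout list. Regions lacking CB45_KO_4 alone had 46.0% (43.6 to 48.3%) for CB45_KO_2 and CB45_KO and 49.5% (46.8 to 52.3%) for CB45_KO_2 and CCRF_WT2. Regions lacking CB45_KO_2 alone had 48.8% (45.4 to 52.1%) for CB45_KO_4 and CB45_KO. In regions held by all 3 knockout lists these last pairs of knockout lists had 53.6% (CB45_KO_2 and CB45_KO) and 52.7% (51.9 to 53.6%, CB45_KO_4 and CB45_KO), and the interval of the second overlaps that of its set. The gap was wider between CB45_KO_2 and CCRF_WT. There the share was 42.2% (37.4 to 47.1%) of 396 members, against 52.2% (51.3 to 53.1%) in regions held by all 3 knockout lists. Regions lacking CB45_KO_4 alone had 46.4% (42.0 to 50.8%) for that pair.

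Most CB45_KO-lacking regions were called as open in parent cells as well. At least 1 parent list held 1221 of them (77.9%, 75.7 to 79.9%), against 84.4% of all union regions. Taken singly, CCRF_WT2 held 1088 (69.4%, 67.1 to 71.6%), CCRF_WT4 held 898 (57.3%, 54.8 to 59.7%) and CCRF_WT held 396 (25.3%, 23.2 to 27.5%). Over the union the shares were 72.9%, 66.8% and 43.3%. The union includes 6504 regions with no knockout call, which have a parent call by construction. Of the 25533 regions called in at least 1 knockout list, 80.4% (79.9 to 80.9%) had a parent peak, with 75.4% in CCRF_WT2, 69.8% in CCRF_WT4 and 51.9% in CCRF_WT. The CB45_KO-lacking regions were below all 4 of these shares, by the most in CCRF_WT. All 3 parent lists held 247 members (15.8%, 14.0 to 17.6%), against 37.9% of the union and 47.2% of regions with a knockout call. No parent list held 347 (22.1%, 20.1 to 24.3%), against 15.6% and 19.6%.

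CCRF_WT is the shortest of the 6 lists, with 14205 merged peaks. When the other lists were shortened to their 14205 most significant peaks, which also changes the members, 1064 regions met the rule and 51.9% of them were held by CCRF_WT, against 59.5% by CCRF_WT2 and 57.4% by CCRF_WT4. The share held by at least 1 parent list was then 78.7%. Shares over all regions of the shortened lists were not taken. Whether the members stayed below such a background in CCRF_WT was therefore not tested. The part of list length alone was not tested.

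**Figure D2:**
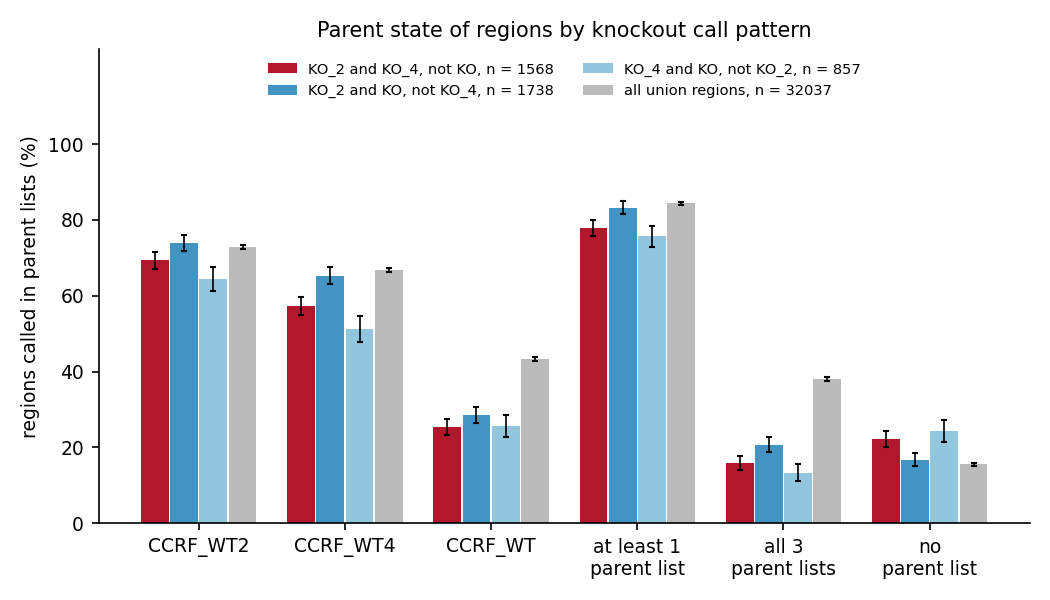
Share of regions called in the parent lists, in percent (y axis), for CB45_KO-lacking regions (red), for regions lacking CB45_KO_4 alone or CB45_KO_2 alone (blues) and for the whole union (grey). Error bars are Wilson 95% intervals; all 3 sets called in a pair of knockout lists sit between 25.3% and 28.4% in CCRF_WT, below the union at 43.3%.

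The parent state of the CB45_KO-lacking regions was mostly intermediate between those of the other sets that 1 knockout list missed. Their share in at least 1 parent list, 77.9% (75.7 to 79.9%), had an interval below that of regions lacking CB45_KO_4 alone. In CCRF_WT4 their interval, 54.8 to 59.7%, met neither that of these regions (63.0 to 67.5%) nor that of regions lacking CB45_KO_2 alone (47.9 to 54.6%). Among the 1738 regions lacking CB45_KO_4 alone, 83.3% (81.4 to 84.9%) were called in at least 1 parent list, with 74.0% in CCRF_WT2, 65.2% in CCRF_WT4 and 28.4% in CCRF_WT. For the 857 regions lacking CB45_KO_2 alone the corresponding shares were 75.7% (72.7 to 78.5%), 64.4%, 51.2% and 25.6%. The CB45_KO-lacking regions fell between the other sets in every one of these shares other than that in CCRF_WT, where they were lowest and the interval overlapped that of the regions lacking CB45_KO_2 alone. Of the regions held by a single knockout list, a parent peak was found for 49.97% (48.2 to 51.8%) in CB45_KO_2, 40.2% (38.1 to 42.3%) in CB45_KO_4 and 45.5% (43.4 to 47.6%) in CB45_KO. Of those held by all 3 knockout lists 98.4% (98.2 to 98.6%) had one.

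The commonest parent pattern was a call in CCRF_WT2 and CCRF_WT4 without one in CCRF_WT, which is the rule of the set carried over to the parent lists. It applied to 568 CB45_KO-lacking regions (36.2%, 33.9 to 38.6%), compared with 19.8% of all union regions and 19.1% of those with a knockout call. These 568 were 8.97% (8.30 to 9.70%) of the 6329 regions with that parent pattern. The same pattern was about as common in regions lacking CB45_KO_4 alone (38.0%, 35.8 to 40.3%) and somewhat less so in those lacking CB45_KO_2 alone (31.2%, 28.1 to 34.3%). By the title codes the 568 regions are absent with DMSO and present at both times of camptothecin in both genotypes, and by the recorded samples they are absent at 4 h in both. The reverse parent pattern, a call in CCRF_WT alone, was found in 50 members (3.19%, 2.43 to 4.18%), against 2.48% of the union and 1.57% of regions with a knockout call.

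The other combinations were rarer. CCRF_WT2 alone of the parent lists held 198 members (12.6%, 11.1 to 14.4%) and CCRF_WT4 alone held 59 (3.76%, 2.93 to 4.82%), against 12.9% and 8.42% of the union and 6.54% and 2.85% of regions with a knockout call. The order against the background thus depended on which background was taken. A call in CCRF_WT2 and CCRF_WT without CCRF_WT4 was present in 75 members (4.78%, 3.83 to 5.95%), above the 2.26% of the union and the 2.50% of regions with a knockout call. A call in CCRF_WT4 and CCRF_WT without CCRF_WT2 was present in 24 (1.53%, 1.03 to 2.27%), above 0.659% and 0.658%.

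**Figure D3:**
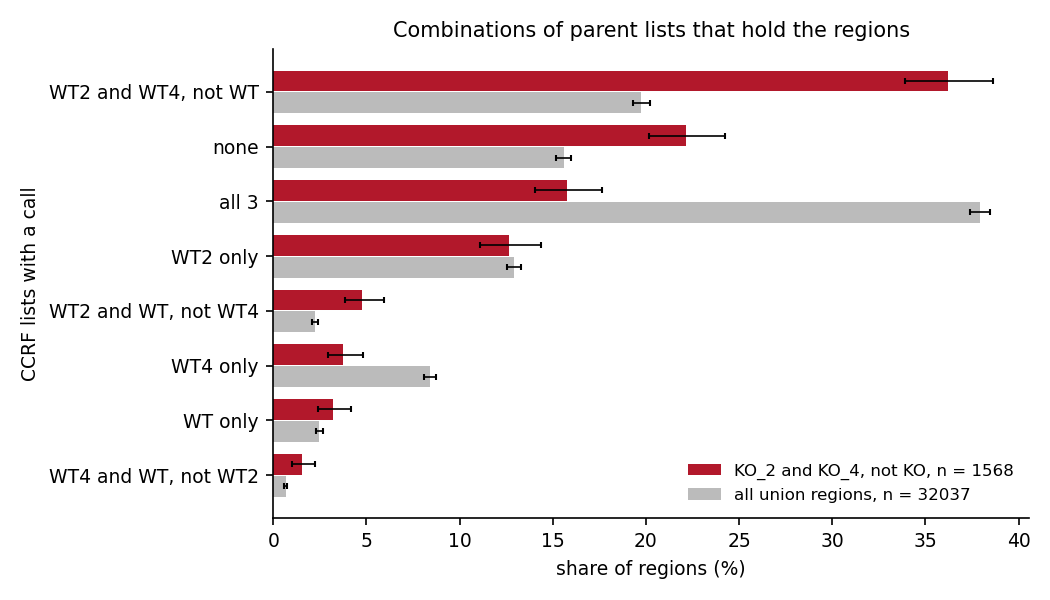
Share of regions, in percent (x axis), by the combination of parent lists that call them (y axis, CCRF_ left off), for CB45_KO-lacking regions (red) and all union regions (grey), with Wilson 95% intervals. The pattern with CCRF_WT2 and CCRF_WT4 and not CCRF_WT stands at 36.2% in red against 19.8% in grey, while a call in all 3 parent lists stands at 15.8% against 37.9%.

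Where a parent list called a CB45_KO-lacking region, the peak was usually one of its weaker ones. In CCRF_WT2 the members had a median fold of 5.61 and a median pileup of 18 reads, against 6.58 and 26 over all regions of that list. In CCRF_WT4 the values were 5.48 and 19, against 6.97 and 30, and in CCRF_WT 4.76 and 12, against 5.68 and 18. The fold was under the median of the list in 71.8% (69.0 to 74.4%) of members called in CCRF_WT2, 74.6% (71.7 to 77.3%) of those called in CCRF_WT4 and 80.6% (76.4 to 84.2%) of those called in CCRF_WT. The regions lacking CB45_KO_4 alone gave 71.3%, 71.7% and 84.6% in these lists, and those lacking CB45_KO_2 alone 78.4%, 80.4% and 76.3%. Across members, the fold in CB45_KO_2 had a Spearman rho of 0.34 with that in CCRF_WT2 (1088 regions) and 0.28 with that in CCRF_WT (396 regions); the points share the underlying sequence and its mappability.

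Members with broader or more significant knockout peaks were more often called in parent cells, as was the case for knockout regions in general. Among the 446 whose knockout peaks spanned under 250 bp, 67.0% (62.5 to 71.2%) had a parent peak, against 77.2% (73.9 to 80.1%) of the 692 from 250 to under 400 bp and 87.8% (83.95 to 90.9%) of the 345 from 400 to under 600 bp. All 85 of at least 600 bp had one (100%, 95.7 to 100%). Over all regions called in at least 1 knockout list the shares in these width classes were 48.8%, 78.7%, 95.4% and 99.7%. By significance, a parent peak was found for 72.7% (68.5 to 76.5%) of members with a lowest -log10 q under 3, for 77.8% (74.6 to 80.7%) from 3 to under 5, for 83.7% (79.5 to 87.2%) from 5 to under 10 and for 32 of the 36 at 10 or more (88.9%, 74.7 to 95.6%). Over all regions called in at least 1 knockout list they were 58.1%, 71.3%, 89.0% and 99.1%. The share of members held by CCRF_WT was 17.7%, 22.6%, 36.3% and 69.4% in these classes. Over all regions called in at least 1 knockout list it was 16.9%, 28.8%, 62.2% and 96.7%. In CCRF_WT2 the order did not hold to the end: the share was 62.7%, 69.8% and 77.4% in the first classes and 69.4% (53.1 to 82.0%) at 10 or more. A wider peak also has more bases on which to meet a parent peak. The 347 members without a parent peak had a median knockout span of 268 bp, against 369 bp for the 247 held by all 3 parent lists, and they included 26 of the 70 members whose knockout peaks spanned at most 170 bp (37.1%, 26.8 to 48.9%).

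The members with the highest fold, ranked by the lower of their values in CB45_KO_2 and CB45_KO_4, included several narrow peaks. The first lay on chromosome X, 61815091 to 61815236 of hg19, a span of 146 bp. Its fold was 14.1 in CB45_KO_2, 14.5 in CB45_KO_4 and 16.0 in CCRF_WT, with pileups of 79, 83 and 79 reads, and no other list called it. CCRF_WT holds the place among the parent lists that CB45_KO holds among the knockout lists, in either reading, so the calls of knockout and parent cells were opposite there. The local background of this region was 4.69, 4.81 and 3.99 reads in the lists that called it. The upper quartiles over all regions of these lists were 3.60, 3.11 and 2.93. No filter for repeats was applied, and whether reads from repeats gather there was not tested.

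The next regions were called in all 3 parent lists. On chromosome 11, 77597472 to 77597694, the fold was 13.5 in CB45_KO_2 and 14.2 in CB45_KO_4, against 21.0, 21.7 and 10.9 in CCRF_WT2, CCRF_WT4 and CCRF_WT. On chromosome 10, 103124586 to 103124765, it was 12.8 and 13.4 in the knockout lists, against 24.3, 25.9 and 12.0 in the parent lists in the same order. The nearest CB45_KO entries were 65258 and 10407 bp away. At 223 and 180 bp wide these are short for accessible regions, and CCRF_WT had the lowest value of the 5 lists at both.

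A pair of high members flanked a stretch of 3034922 bp on chromosome 7 in which no list held an entry. The region at 61080428 to 61080680 lay 0.00759 Mb beyond its end, with folds of 10.5 in CB45_KO_2 and 11.4 in CB45_KO_4, against 11.5, 11.4 and 11.0 in CCRF_WT2, CCRF_WT4 and CCRF_WT. Its local background was 14.0 and 13.3 reads in the knockout lists, far above the lowest of either list, and a CB45_KO entry lay 286 bp away. The region at 58006738 to 58006875 lay 0.031 Mb before the stretch, was 138 bp wide, and had folds of 10.4 in CB45_KO_2 and 12.6 in CB45_KO_4 and no call in any parent list. The stretch is defined by missing peak entries, and mapped reads were not examined. Within 1 Mb of the longest such stretch of their chromosome lay 42 members (2.68%), against 2.08% of the union. The shares were 1.96% for regions lacking CB45_KO_4 alone and 2.57% for those lacking CB45_KO_2 alone. No filter for repeats was applied here, and whether reads from repeats gather at this pair was not tested.

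The remaining members among the 10 highest had low backgrounds. On chromosome 10, 129595727 to 129595914, folds were 9.81 and 8.97 in the knockout lists and 6.99, 7.74 and 9.20 in CCRF_WT2, CCRF_WT4 and CCRF_WT. On chromosome 18, 4510744 to 4510998, they were 8.10 and 12.3 in the knockout lists and 8.86 and 8.11 in CCRF_WT4 and CCRF_WT, with none in CCRF_WT2. Neither region showed the drop in CCRF_WT that marks the commonest parent pattern.

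**Figure D4:**
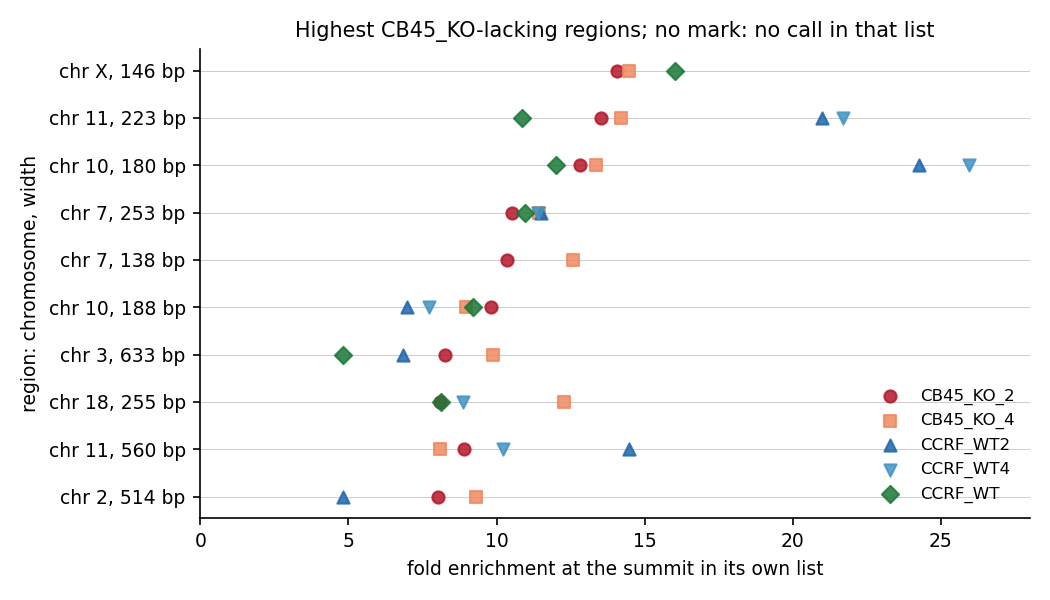
Fold enrichment at the summit, within each list (x axis), for the 10 CB45_KO-lacking regions of highest lower fold over CB45_KO_2 and CB45_KO_4 (y axis, by chromosome and width). Circles and squares are knockout lists, triangles and diamonds parent lists, and a missing mark is a missing call; the regions of 223 and 180 bp have folds of 21.0 to 25.9 in CCRF_WT2 and CCRF_WT4.

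Members of at least 300 bp, the width more usual for an enhancer or promoter, numbered 1159 (73.9%), against 66.2% of the union. Regions lacking CB45_KO_4 alone had 81.7% and those lacking CB45_KO_2 alone 73.2%. Several narrower members ranked above the highest wide one, but folds were not compared between width classes. The highest wide member lay on chromosome 3, 6991975 to 6992607 (633 bp). Its folds were 8.25 in CB45_KO_2 and 9.90 in CB45_KO_4, against 6.83 in CCRF_WT2 and 4.83 in CCRF_WT, and CCRF_WT4 had no call. The region on chromosome 11, 102245171 to 102245730 (560 bp), followed the commonest parent pattern, with folds of 8.89 and 8.08 in the knockout lists, 14.5 in CCRF_WT2, 10.2 in CCRF_WT4 and no call in CCRF_WT. Its pileups were 23 and 20 reads in the knockout lists and 47 and 24 in the 2 parent lists. It was thus missing from the same-coded list of each genotype.

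The other wide members differed in their parent state. On chromosome 2, 163588730 to 163589243 (514 bp), folds were 8.02 and 9.32 in the knockout lists and 4.80 in CCRF_WT2, which rested on a pileup of 10 reads, and the remaining parent lists had no call. On the same chromosome, 163174862 to 163175578 (717 bp) had folds of 7.77 and 7.63 in the knockout lists and 7.92, 7.74 and 5.04 in CCRF_WT2, CCRF_WT4 and CCRF_WT. On chromosome 7, 89699677 to 89700065 (389 bp) had folds of 9.90 and 7.93 in the knockout lists, on pileups of 23 and 18 reads, and no call in parent cells; its nearest CB45_KO entry was 275718 bp away.

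Members without any parent peak were called in the pair of knockout libraries alone. After the 2 regions on chromosome 7 named above, the highest were on chromosome 5, 50546981 to 50547217, with folds of 8.01 in CB45_KO_2 and 7.58 in CB45_KO_4, on chromosome 2, 227514867 to 227515164, with 7.50 and 6.93, and on chromosome 6, 120177420 to 120177584, with 6.93 and 7.14. Their pileups were 18 and 18, 21 and 17, and 16 and 16 reads. Whether parent cells had reads at these places below the calling threshold was not tested.

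The regions were found on every chromosome examined, and their share of the union varied. It was highest on chromosome 18, at 48 of 633 regions (7.58%, 5.77 to 9.91%), followed by chromosome X, at 72 of 1075 (6.70%, 5.35 to 8.35%), and lowest on chromosome 19, at 48 of 1514 (3.17%, 2.40 to 4.18%). Regions lacking CB45_KO_4 alone had 4.90%, 7.81% and 5.68% on chromosomes 18, X and 19, against 5.42% over all chromosomes. Those lacking CB45_KO_2 alone had 2.05%, 2.79% and 2.11% there, against 2.68%. Together, the gene-rich chromosomes 17, 19 and 22 held 137 members (3.80% of their union regions, 3.22 to 4.47%), whereas the gene-poor chromosomes 4, 13 and 18 held 177 (5.90%, 5.11 to 6.80%). The regions lacking CB45_KO_4 alone ran the other way, at 6.57% (5.81 to 7.42%) on chromosomes 17, 19 and 22 and 4.97% (4.24 to 5.80%) on chromosomes 4, 13 and 18. Those lacking CB45_KO_2 alone had 1.86% (1.46 to 2.35%) and 3.13% (2.57 to 3.82%). These groups of chromosomes were taken from earlier results on the same lists.

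The share of members with a parent peak was higher on the gene-rich chromosomes, as it was for all regions there. A parent peak was present for 128 of the 137 members on chromosomes 17, 19 and 22 (93.4%, 88.0 to 96.5%) and for 131 of the 177 on chromosomes 4, 13 and 18 (74.0%, 67.1 to 79.9%). Over all regions called in at least 1 knockout list the shares were 91.2% (90.1 to 92.3%) and 74.4% (72.7 to 76.1%), inside the intervals of the members, and over the union 93.4% and 78.9%. The median union width of members was 485 and 378 bp in these groups. The other sets showed the same order, at 92.8% and 74.5% for regions lacking CB45_KO_4 alone and 95.5% and 68.1% for regions lacking CB45_KO_2 alone. Among single chromosomes, the share of members with a parent peak ran from 60.4% on chromosome 18 to 94.1% on chromosome 17.

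**Figure D5:**
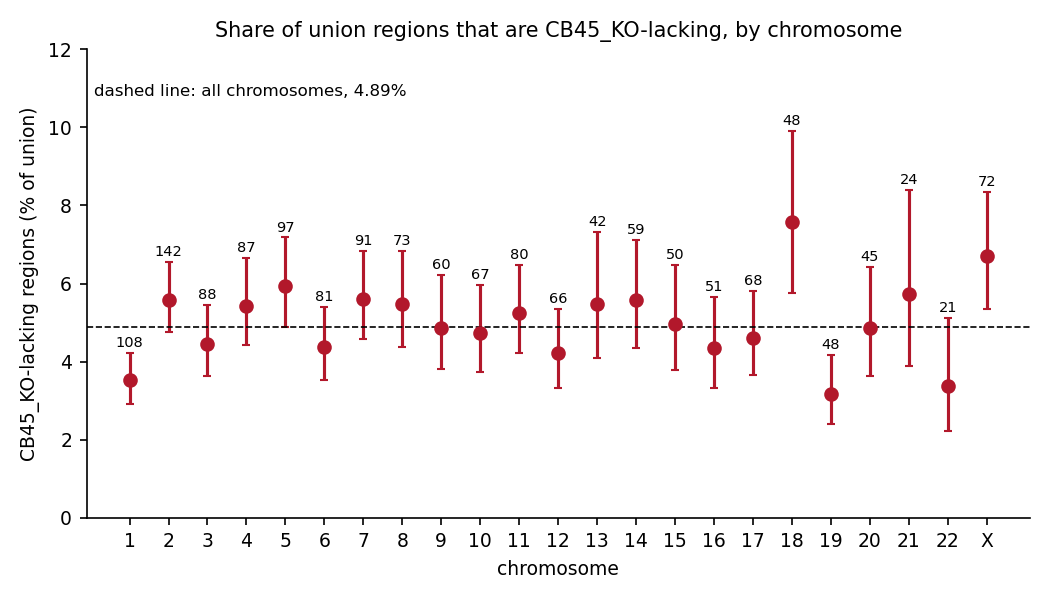
Share of union regions that are CB45_KO-lacking, in percent (y axis), on each chromosome (x axis), with Wilson 95% intervals and the number of members above each. The dashed line is the share over all chromosomes, 4.89%; chromosomes 18 and X lie above it and chromosomes 1 and 19 below it with intervals that leave it out.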

How the data were processed

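The deposited files are 6 peak lists, 1 for each library, called singly, since each carries 1 library code. The submitters' processing notes name MACS2 2.1.2, BWA 0.7.17, Picard 2.9.2 and build hg19, among others, without roles; whether reads were shifted or duplicates removed is not stated in those notes. The score deposited by the authors is 10 times the -log10 q, truncated. The deposited fold was taken as the ratio of the summit to its local background, with 1 read added to each. The deposited -log10 p and q are the caller's significance of that summit.

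Entries were joined on an overlap of 1 bp or more, and the highest fold of a list in a region was used. Pileup and background were recovered from fold and p, and at least 99.7% of pileups in each list came out whole, to within 0.02. The recovery and the rule were tested on simulated data. Shares carry Wilson 95% intervals; amplified reads are not independent molecules. Named regions are the 10 of highest lower fold, then the top 5 of at least 300 bp, with all 3 parent lists and with none, and 3 on each side of the threshold. Members, lists of chromosomes and comparisons were chosen with earlier results of these data known. Python 3.11.15, pandas 2.3.3 and scipy 1.17.1 were used. Coordinates are hg19, counted from 1. Genes and sequences were not used here, since the reference at hand is of another build.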

Additional observations from a re-analysis of the deposited data

How the results depend on the processing

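No paired analysis was possible because each group has 1 library and CB45_KO-lacking regions have, by the rule, no value in CB45_KO. The number of CB45_KO-lacking regions, 1568, was 1538 with an overlap of 50% of the shorter entry, 1158 with entries of -log10 q of at least 5, 1064 in lists of equal length, 1370 without entries up to 170 bp, 1519 without a CB45_KO entry within 500 bp and 1568 without the CCRF_WT list. It was 386 when both calls had to reach a -log10 q of 5. By the recorded samples the rule takes other regions, 857 in number. The shares in CCRF_WT2, CCRF_WT4, CCRF_WT, all 3 parent lists and at least 1 were then 64.4%, 51.2%, 25.6%, 13.2% and 75.7%. With every entry at a -log10 q of at least 5 they were 76.5%, 69.0%, 27.6%, 20.3% and 85.6%, and with only the 2 knockout calls held to that limit 76.7%, 61.4%, 39.4%, 24.9% and 84.2%. Lists of equal length gave 59.5%, 57.4%, 51.9%, 31.3% and 78.7%. Without narrow entries the shares in CCRF_WT2, CCRF_WT4 and at least 1 parent list were 72.7%, 60.8% and 81.2%, and without CCRF_WT, left out after the data were seen, the last was 74.7%. The overlap and 500 bp settings left every share inside its interval. Among the medians, width was 521 bp and fold in CB45_KO_2 5.74 with the stricter q, and 514 bp and 5.91 in equal lists. Pileups near 8 limit what a missing call can show.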
